A study of Homo sapiens with 22 samples.

Results

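The genes described here are 10 human genes whose products switch on the replicative helicase: MTBP, TICRR, TOPBP1, CDC45, GINS1, GINS2, GINS3, GINS4, RECQL4 and DONSON. They were chosen by function from the 19974 protein-coding genes on chromosomes 1 to 22 and X, with earlier results of these data known. For each gene, every entry of the deposited MTBP peak, H3K4me2 peak and initiation zone lists that touched its RefSeq span, or the 20 kb on either side, was taken. All 10 genes were found, and their windows of 46.5 to 118 kb (median 68.3 kb, against 64.2 kb for all protein-coding genes) held 14 MTBP peaks, 26 H3K4me2 peaks and 3 zones.

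The helicase is loaded in an inactive form, as a double ring of MCM proteins, during G1 phase. In S phase the Treslin protein, encoded by TICRR, and its partner MTBP bind TOPBP1 after phosphorylation by cyclin-dependent kinase, and CDC45 and the GINS complex then join MCM to form the active helicase. GINS is built from the products of GINS1, GINS2, GINS3 and GINS4, while RECQL4 and DONSON act in the same assembly step. The genes themselves are transcribed in dividing cells, many of them under E2F control. Neither their transcription nor E2F binding was measured in these libraries.

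The study used DLD-1, an established human colorectal adenocarcinoma line with edited MTBP alleles. CUT&RUN with a FLAG antibody, in which a tethered nuclease releases the DNA around its target, was done in MTBP-mAID/MTBP-WT-FLAG cells (full-length MTBP, 3 libraries), MTBP-mAID/MTBP-deltaC-FLAG cells (MTBP without its C-terminal part, 3 libraries) and MTBP-mAID/MTBP-mAID cells, which have no FLAG tag (3 libraries). Control IgG and an H3K4me2 antibody were used in the full-length line (2 libraries each). EdU-seq, which labels new DNA with 10 µM EdU for 3 hr, covered G1-arrested full-length cells and released full-length and deltaC cells (3 libraries each). The release into S phase was done with HU (hydroxyurea) and aphidicolin, inhibitors that slow fork movement. All 8 groups, 22 libraries in all, therefore carry at least some mAID-tagged MTBP, a form with an auxin-inducible degron. Whether auxin was added, and whether a line is a single clone, is not given in the sources used here.

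The lists give called peaks, and 1 signal value per line at each MTBP peak, with no value per library. No spread between replicates can be computed from them, so the comparisons below are descriptions without a test, and the depth is unknown. The whole lists hold 29848 MTBP peaks, 62388 H3K4me2 peaks and 2473 zones on the chromosomes used. The label of the cells was checked with H3K4me2, a mark of active promoters and enhancers. It lay within 1 kb of the start of 7 of 8 colorectal epithelial marker genes (GPA33 had it only elsewhere in its window) and of 1 of 8 marker genes of other cell types, CD3E. Counted anywhere in the window, H3K4me2 was present at 8 of the 8 colorectal genes and at 6 of the 8 others.

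The promoters of TICRR, CDC45, GINS1, GINS2 and GINS3 are shown first, because MTBP covered the first 4 and was missing from the last. Each run is the 250 bases before the 5′-most RefSeq start in GRCh38.p14 (the assembly of hg38), written 5′ to 3′ along the gene. The promoter table held 6 of the 10 genes. The stretch of TOPBP1, the remaining gene of the 6, also lay wholly inside an MTBP peak but is not printed. Capitals mark matches, on either strand, to CCAAT (the NF-Y box), GGGCGG (the SP family box), TTTCCCGC or TTTGGCGC (E2F letters) and CACGTG (the E-box). Neighbouring matches may share bases, as a pair of GGGCGG matches in GINS2 do.
TICRR, chr15:89575219-89575468, plus strand: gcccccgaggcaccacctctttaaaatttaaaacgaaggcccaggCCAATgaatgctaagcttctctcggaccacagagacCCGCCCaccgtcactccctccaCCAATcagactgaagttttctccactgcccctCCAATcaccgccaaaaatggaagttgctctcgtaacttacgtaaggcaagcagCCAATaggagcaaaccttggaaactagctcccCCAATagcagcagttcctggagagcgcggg
CDC45, chr22:19479216-19479465, plus strand: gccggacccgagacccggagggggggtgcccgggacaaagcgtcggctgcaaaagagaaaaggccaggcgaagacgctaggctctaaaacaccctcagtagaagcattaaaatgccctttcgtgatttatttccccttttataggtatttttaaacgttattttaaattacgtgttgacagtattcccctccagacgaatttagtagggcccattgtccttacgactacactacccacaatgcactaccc
GINS1, chr20:25407423-25407672, plus strand: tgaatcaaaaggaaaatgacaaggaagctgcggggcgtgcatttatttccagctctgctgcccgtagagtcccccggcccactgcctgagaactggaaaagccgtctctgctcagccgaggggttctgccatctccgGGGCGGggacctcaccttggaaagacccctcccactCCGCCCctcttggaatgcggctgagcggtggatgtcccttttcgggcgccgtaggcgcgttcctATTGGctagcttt
GINS2, chr16:85688955-85689204, minus strand: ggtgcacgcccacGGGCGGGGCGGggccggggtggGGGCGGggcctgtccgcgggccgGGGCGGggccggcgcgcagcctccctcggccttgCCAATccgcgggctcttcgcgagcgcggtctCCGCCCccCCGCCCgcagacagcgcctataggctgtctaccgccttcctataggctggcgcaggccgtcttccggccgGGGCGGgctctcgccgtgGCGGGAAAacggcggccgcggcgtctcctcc
GINS3, chr16:58392221-58392470, plus strand: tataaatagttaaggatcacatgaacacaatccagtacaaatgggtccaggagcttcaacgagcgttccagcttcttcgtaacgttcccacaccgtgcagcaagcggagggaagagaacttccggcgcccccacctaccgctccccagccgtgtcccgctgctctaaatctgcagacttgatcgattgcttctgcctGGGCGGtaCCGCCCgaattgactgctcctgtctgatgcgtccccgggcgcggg

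Each of the first 4 stretches lay wholly inside an MTBP peak and wholly inside an H3K4me2 peak, whereas the GINS3 stretch lay wholly inside H3K4me2 with no MTBP. The TICRR stretch had 5 CCAAT matches, between 205 and 26 bases before the start. At least that many occurred in 66 of 15812 protein-coding promoters (0.417%), and at least 1 in 34.4% of them. GINS2 was the richest in G and C (79.2%, against a median of 62%), with 7 GGGCGG matches and the only E2F match among the 6 genes, a TTTCCCGC on the opposite strand starting 31 bases before the start. TTTCCCGC was present in 1.88% of promoters. TTTGGCGC (0.715% of promoters) and CACGTG (7.79%) matched in none of the 6. GGGCGG occurred in 5 of the 6 genes and in 55.8% of all promoters. CDC45, at 48.4% G and C, had no match to any of the 5 motifs. GINS1 and GINS3, which differed in MTBP, had 2 GGGCGG matches each, and GINS1 had 1 CCAAT on the opposite strand. A match is a description of the letters and does not show that a factor binds.

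H3K4me2 was present at the start of all 10 genes and MTBP at 7. For genes without a strand in the tables used, either end was taken as a possible start. These were 4 of the 10 (MTBP, GINS4, RECQL4 and DONSON) and 4161 of the 19974 protein-coding genes. A peak or zone at the far end of such a gene therefore counts in the shares at starts given for all genes. The authors' signed distances put the starts of MTBP and GINS4 at their lower-coordinate ends. Among all 19974 protein-coding genes, 42.7% carried MTBP within 1 kb of a start and 63.8% carried H3K4me2. Of the genes with H3K4me2 there, 66.9% also had MTBP, so 7 of 10 is close to that background. In the whole windows, MTBP was present at 8 of the 10 genes (71.1% of all protein-coding genes), H3K4me2 at 10 (86.2%) and a zone at 3 (32.1%). MTBP, TICRR, TOPBP1, CDC45, GINS1, GINS2 and GINS4 had MTBP at the start. RECQL4 had it only elsewhere in the window, and GINS3 and DONSON had none.

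**Figure D1:**
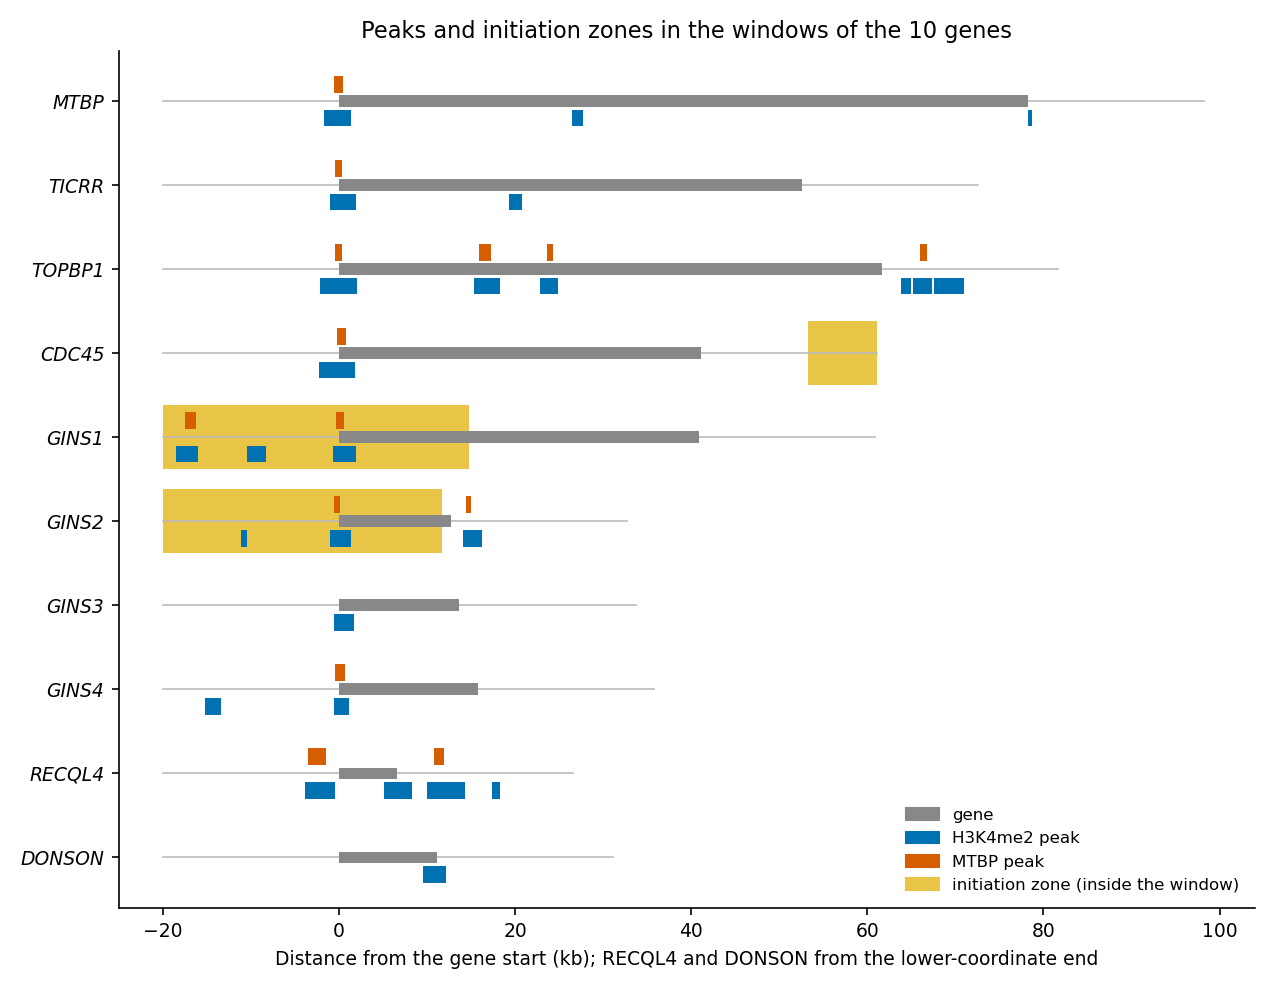
Windows of the 10 genes, drawn to scale along the distance from the gene start in kb (for RECQL4 and DONSON from the lower-coordinate end). Grey bars are genes, blue bars the 26 H3K4me2 peaks, orange bars the 14 MTBP peaks and yellow blocks the parts of the 3 zones inside the windows; MTBP sits on the starts of 7 genes, and TOPBP1 has the most peaks of both kinds.

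MTBP and TICRR, the genes of the complex that was mapped, each had a single MTBP peak, at the start. At MTBP it spanned chr8:120444902-120445861 (score 289, the highest of the 14 and above 71.8% of all peaks), with its summit at −178 bp from the start. Its mean signal was 0.425 per base in the full-length line and 0.273 in deltaC cells. The peak covered the start of MTBP and the higher-coordinate end, 269 bp away, of MRPL13, a mitochondrial ribosomal protein gene. The strand of MRPL13 is not given in the sources used here, so this end may be its start. At TICRR the peak spanned chr15:89574978-89575811, with a score of 108 and its summit at −107 bp from the start. Its mean signal was 0.444 per base in the full-length line and 0.280 in deltaC cells. The TICRR entry is the only 1 of the 14 named for deltaC, a name shared by 877 peaks of the list (2.94%). Its full-length value was nevertheless the higher, as at 24.6% of the peaks so named. The H3K4me2 peaks at these starts had a fold enrichment of 22.8 at MTBP and 26.9 at TICRR, against a median of 26.7 over all genes with H3K4me2 at a start. Each gene also had an H3K4me2 peak of low fold without MTBP inside its span, 7.25 at MTBP and 6.49 at TICRR.

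An H3K4me2 entry at the far end of MTBP, picked out after its values were seen, stands apart from the rest. It is 356 bp wide (chr8:120523721-120524076) and lies 85 to 440 bp beyond the higher-coordinate end of the gene. Its fold enrichment was 2.36, while its −log10 q-value was 30.2. Only 13 of the 62388 H3K4me2 peaks had a lower fold. Among the 3115 peaks whose −log10 q-value was within 10% of it, the median fold was 8.79 and none was lower. MTBP is the edited gene of these lines, and the position of the inserted tags is not given in the sources used here. Their part in this value was not tested.

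TOPBP1, the scaffold that Treslin and MTBP bind, had 4 MTBP peaks and 6 H3K4me2 peaks, the most of the 10 genes. The median protein-coding gene had 1 MTBP and 3 H3K4me2 peaks in its window. The peak at the start (chr3:133661608-133662443, score 112) had a mean signal of 0.257 per base in the full-length line and 0.135 in deltaC cells. It also covered the start of TF, the transferrin gene, 57 bp away. H3K4me2 at this start was among the strongest, with a fold of 48.1, above 94.0% of genes with H3K4me2 at the start. A peak annotated to exon 14 of 28 (chr3:133637630-133638335, score 190) had the highest full-length signal of the 14, 0.527 per base, and 0.0956 in deltaC cells. A peak in intron 10 of 27 (chr3:133644657-133646019, score 103) had 0.280 per base in the full-length line and 0.0650 in deltaC cells. The summits of these gene-body peaks were 30 and 13 bp from the summit of their H3K4me2 peak, the closest of the 14, against a median of 211 bp over all MTBP peaks with H3K4me2. The fourth peak lay 4244 bp beyond the gene's far end (chr3:133595171-133595994) and was intergenic by the authors' annotation, with 0.298 and 0.195 per base.

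CDC45, the factor whose arrival marks helicase activation, had 1 peak of each kind. The MTBP peak (chr22:19479199-19480233, score 201) had a mean signal of 0.379 per base in the full-length line and 0.295 in deltaC cells, the highest deltaC value of the 14. Its summit lay 101 bp after the 5′-most of the 3 starts listed, the only start-site summit of the 7 on the gene side. The authors' distance, −110 bp, is to a later start. The H3K4me2 peak was 4065 bp wide, wider than 95.2% of the list. It reached the neighbouring UFD1 gene, a ubiquitin pathway gene whose higher-coordinate end is 273 bp away. As no strand is given for UFD1 in the sources used here, that end may be its start. The summits of the 2 marks were 1666 bp apart, compared with a median of 194.5 bp over the 14 peaks.

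The GINS genes differed among themselves. GINS1 had an MTBP peak at the start (chr20:25407311-25408258, score 103), annotated to exon 1 of 8 of a non-coding transcript, with 0.266 per base in the full-length line and 0.0134 in deltaC cells, the lowest deltaC signal of the 14. A second peak in its window lay on the start of ABHD12, a lipase gene, in the 5′ UTR of exon 1 of 13 (chr20:25390156-25391458, score 170), with 0.330 and 0.136 per base. GINS2 had a peak at the start (chr16:85688807-85689533, score 211), with 0.456 per base in the full-length line and 0.242 in deltaC cells. Its other peak was annotated to the 3′ UTR, exon 15 of 15, of the neighbouring GSE1 gene (chr16:85674002-85674557), with 0.339 and 0.154 per base. GINS4 had 1 peak, at the start (chr8:41528862-41530001, score 180, annotated to intron 1 of 7), with 0.328 and 0.225 per base. GINS3 had none. The H3K4me2 fold at the start was 49.2 at GINS2, 46.8 at GINS3, 32.6 at GINS1 and 23.6 at GINS4, so GINS3 ranked with GINS2 by this mark.

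GINS3, RECQL4 and DONSON had H3K4me2, but no MTBP peak, within 1 kb of a start (of either end for RECQL4 and DONSON). The GINS3 fold of 46.8 exceeded that of 93.1% of the genes with H3K4me2 at a start. Of the 1273 genes whose fold ranked within 5 percentage points of it, 83.0% had MTBP at the start. The nearest MTBP peak was 109 kb from GINS3, farther than for 88.5% of protein-coding genes. Within 500 kb of the gene there were 14 MTBP and 33 H3K4me2 peaks, or 42.4 per 100, against 47.8 in the whole lists. At DONSON the fold was 18.5, and 57.1% of the 1274 genes of like rank had MTBP. Its nearest MTBP peak was 34.1 kb away, and the neighbouring SON gene, which encodes a splicing factor, had MTBP within 1 kb of its own start. RECQL4 is compact, with a span of 6.55 kb, and has crowded neighbours. An H3K4me2 peak of fold 20.9 (chr8:144516408-144519620) covered its higher-coordinate end and had no MTBP. One MTBP peak lay 1454 bp beyond the other end, at the promoter of SLC33A2, a transporter gene (chr8:144507782-144509834, score 131), with 0.225 and 0.153 per base. The H3K4me2 peak around it, of fold 28.0, came within 1 kb of RECQL4. The other MTBP peak lay in exon 5 of 5 of LRRC24 (chr8:144522123-144523160, score 190), with 0.325 and 0.164 per base, and is the only 1 of the 14 in the authors' enhancer class.

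**Figure D2:**
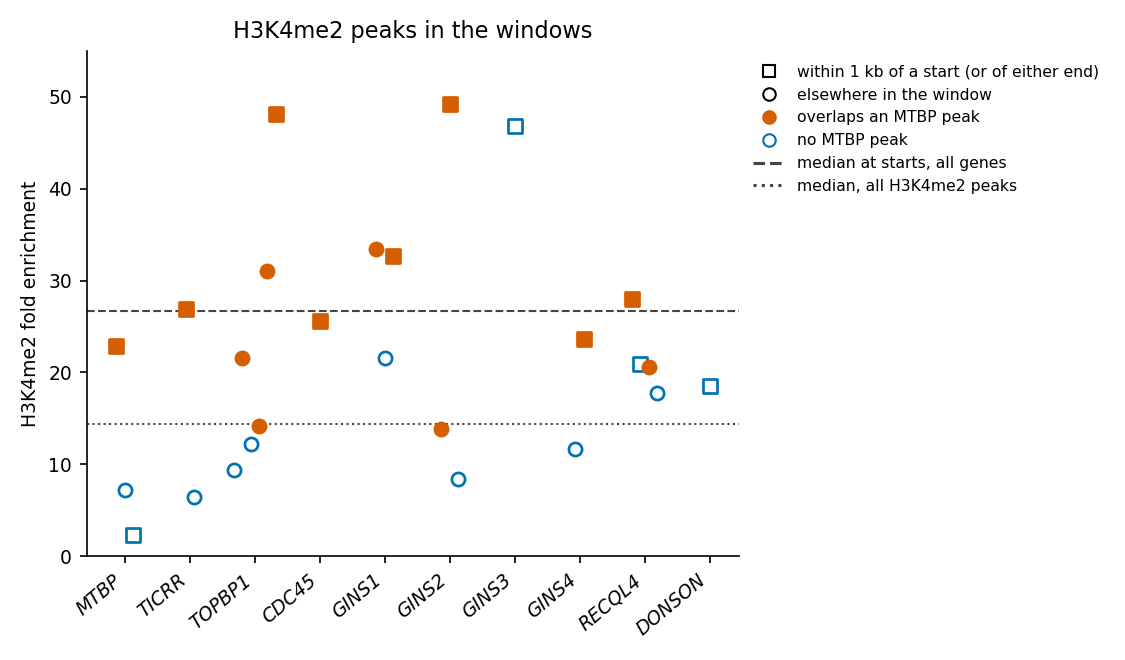
Fold enrichment of the 26 H3K4me2 peaks by gene, as the authors gave it. Squares lie within 1 kb of a start (of either end where the strand is not given) and circles elsewhere, and filled symbols overlap an MTBP peak; the dashed line is the median at starts over all genes (26.7), the dotted line the median of the whole list (14.4), and the open square at GINS3 (46.8) is the highest without MTBP.

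All 14 MTBP peaks lay wholly inside an H3K4me2 peak, and 98.9% of the list overlapped one. Of the 26 H3K4me2 peaks, 14 had MTBP (43.6% of the list). Those with MTBP had folds of 13.8 to 49.2 (median 26.3), and the 12 without had folds of 2.36 to 46.8 (median 11.9). The groups overlapped through GINS3, RECQL4, DONSON and a peak before GINS1 of fold 21.5. In the whole list the medians were 23.0 with MTBP and 9.35 without. By the authors' classes, 9 of the 14 MTBP peaks were at promoters (34.7% of the list), 1 at an enhancer (17.6%) and 4 at neither (47.7%). The windows were built around genes, and 7 of the 14 peaks lay at member starts. A larger promoter share than in the list is therefore partly built in. The scores of the 14 were modest, with a median of 150.5 against 190 in the list, and 5 reached the list's median. The mean full-length signal per base had a median of 0.329, against 0.395 in the list.

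Initiation zones lay in 3 of the 10 windows, and in 2 they covered the start. GINS2 was in the strongest. Its zone (chr16:85677252-85771212, 93.96 kb) had a score of 2171, above 90.2% of zones, and held 91.7% of the gene with its start, the start of C16orf74, 1 MTBP peak and 5 H3K4me2 peaks. The GINS1 zone (chr20:25369825-25422412, 52.6 kb, score 762) held the starts of GINS1 and ABHD12, 36.0% of the gene, 2 MTBP peaks and 3 H3K4me2 peaks. The CDC45 zone (chr22:19532757-19560958, 28.2 kb, score 202) started 12.1 kb beyond the gene's end and was in the lowest 18.5% by score. It touched no protein-coding gene and held 0 MTBP and 0 H3K4me2 peaks. A start inside a zone was found for 20.9% of all protein-coding genes. A zone overlapped 3 of the 14 MTBP peaks (23.0% of the list), those of GINS1 and ABHD12 and of the GINS2 start.

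The other 7 genes lay at very different distances from a zone. RECQL4 was 54.9 kb from one of score 2160, TICRR 60.1 kb from one of score 243 and DONSON 73.2 kb from one of score 478. TOPBP1 was 110 kb and GINS3 201 kb away. GINS4 was 824 kb and MTBP 2309 kb from the nearest zone, the latter farther than 86.0% of protein-coding genes. Thus MTBP and GINS4 had no zone within 500 kb, as had 34.5% of protein-coding genes. TICRR had 9 zones within that distance, together covering 328 kb. The median distance was 66.7 kb over the 10 genes and 160 kb over all protein-coding genes. These distances are to listed zones only. EdU-seq was done in cells arrested in G1 or released into S phase with HU and aphidicolin. Initiation later in S phase may therefore be missing from the list, and a far zone does not show that no replication starts near a gene. GINS1 and GINS2 had both an MTBP peak and a zone at the start, GINS3, RECQL4 and DONSON had neither, and MTBP, TICRR, TOPBP1, CDC45 and GINS4 had the peak alone. Over all protein-coding genes, the start was in a zone for 26.1% of those with MTBP at the start and for 17.1% of those without.

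The full-length and deltaC lines were compared by the authors' signal at each peak. Nearly all values (99.8% of the full-length and 91.0% of the deltaC ones) equal the peak width times a number of 6 decimals (to within 0.002 of its last decimal), so the signal is a sum over the peak, and levels are given above per base. The scaling between the lines is not given. As deposited, deltaC was the lower at 14 of the 14 peaks and at 95.5% of the list. The median log2 ratio of deltaC to full-length, with 1 added to each signal, was −0.92 over the 14 peaks and −0.93 over the list. Dividing each line by its median removes nearly all of the difference over the list by construction (median log2 ratio −0.05). That division therefore cannot show whether deltaC was lower over the whole list. After it, 8 of the 14 peaks are lower in deltaC. The ratios below are therefore read against the list's median.

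**Figure D3:**
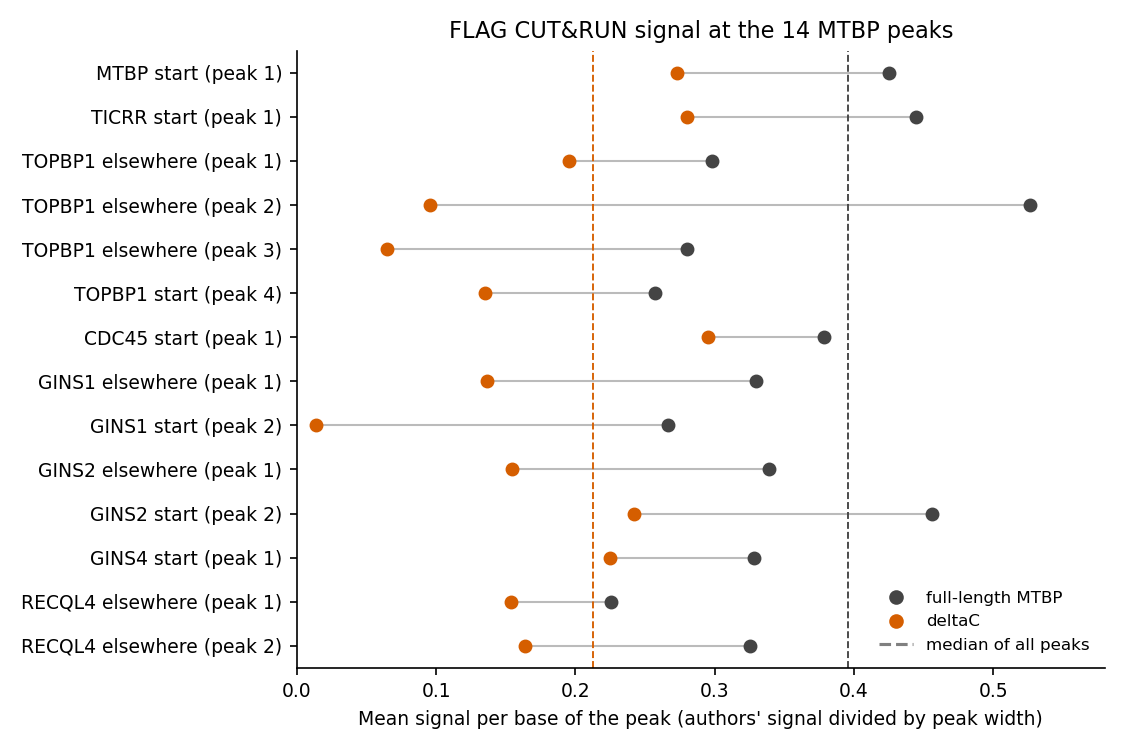
Mean signal per base at the 14 MTBP peaks in the full-length line (dark) and the deltaC line (orange), as the authors' signal divided by peak width, with 1 value per line and no error. Dashed lines are the medians of all peaks (0.395 and 0.213), and the widest gaps are at the GINS1 start (0.266 and 0.0134) and the exonic TOPBP1 peak (0.527 and 0.0956).

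At the starts, 6 of the 7 peaks lay above the list's median ratio of −0.93, 2 of them (GINS2 and TOPBP1) only barely. GINS1 lay far below the list's median. Of the 7956 listed peaks within 1 kb of a protein-coding start, 46.5% lay above it. The log2 ratios were −0.36 at CDC45, −0.54 at GINS4, −0.64 at MTBP, −0.66 at TICRR, −0.91 at GINS2 and −0.92 at TOPBP1. With each line divided by its median, CDC45 stood at 0.52, GINS4 at 0.34, MTBP at 0.24 and TICRR at 0.22, so deltaC was then the higher line at these 4 starts. As deposited, the deltaC signal at CDC45 was 77.9% of the full-length one, and 86.9% of the list had a lower ratio. At GINS1 the deltaC signal was 12.7 against 252, or 5.05%, a log2 ratio of −4.20 and a 19.8-fold difference as deposited. The log2 ratio was −3.37 with each line divided by its median and −3.34 with each divided by its sum. As deposited, only 293 peaks of the list (0.982%) had a lower ratio. The GINS1 start peak was itself a weak one, and its ratio rests on 1 value per line. Its score was above 9.32% of the list and its full-length signal per base above 13.5%. The list holds 186 peaks with a deltaC signal of 0. In the flanks of GINS1, within 500 kb and outside its window, 21 other peaks had ratios from −2.76 to 0.48 with a median of −0.91.

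The 7 peaks away from these starts had a median ratio of −1.13, against −0.66 at the starts, although the lowest of the 14 was at a start. In the whole list the order was the other way, with −0.92 away from protein-coding starts and −0.97 at them. The 7 include peaks at the starts of ABHD12 and SLC33A2. The TOPBP1 gene-body peaks were at −2.44 (exon 14) and −2.10 (intron 10), where 3.57% and 5.84% of the list were lower. Their full-length signal per base was above 79.1% of the list in the exon and above 16.7% in the intron. The other TOPBP1 peaks, at −0.92 and −0.61, were near or above the list's median. The flanks of TOPBP1 held 10 other peaks with a median of −0.81. The ABHD12 start was at −1.27, the GSE1 peak at −1.13, the LRRC24 peak at −0.99 and the SLC33A2 promoter at −0.55. A ratio below −1 was seen at 5 of the 14 peaks (44.9% of the list) and a ratio above 1 at 0 (0.419%). A ratio below −2, a bound set after the values were seen, was reached by 3 of 14 (6.72% of the list), the GINS1 start and the TOPBP1 gene-body peaks. With each line divided by its median, the TOPBP1 peaks stood at −1.57 and −1.22, and 1 of 14 was below −2 (2.31% of the list). Among promoter-class peaks, 2 of 9 were below −1, the GINS1 and ABHD12 starts (47.6% of promoter-class peaks). With the lines scaled to equal medians, the ABHD12 peak stood at −0.39 and the GSE1 peak at −0.25.

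**Figure D4:**
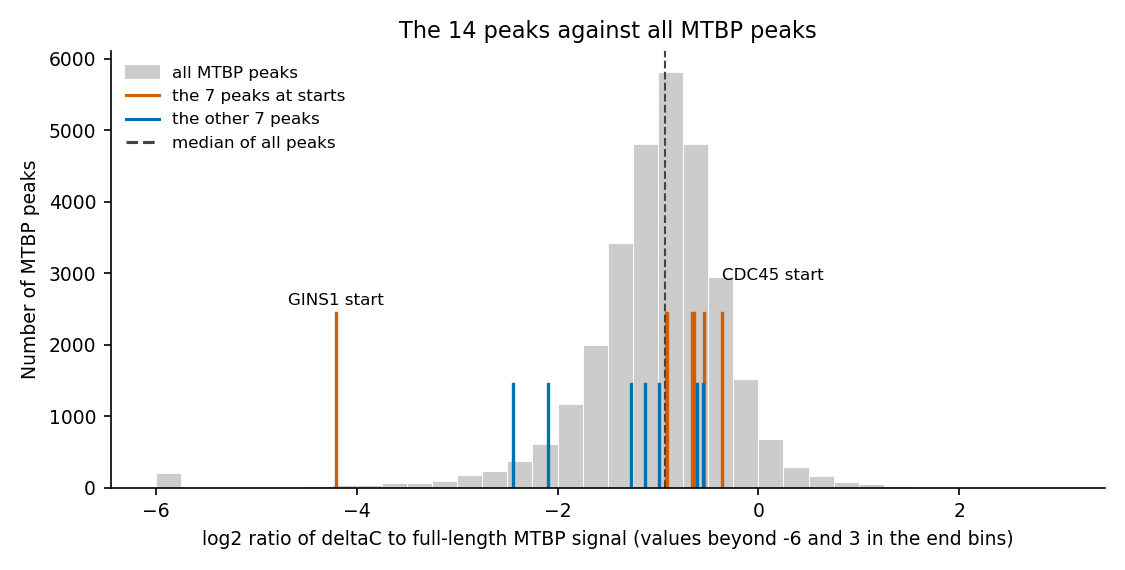
Log2 ratio of deltaC to full-length signal for all 29848 MTBP peaks (grey, number per bin) with the 7 peaks at starts (orange lines) and the other 7 peaks (blue lines) of the 10 genes; line heights have no meaning. The dashed line is the median of all peaks (−0.93), with CDC45 at −0.36 to its right and GINS1 at −4.20 far to its left.

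The rest of the pathway was taken as 24 genes of helicase loading, firing kinases, the leading-strand polymerase and partners of Treslin or of the fork. MTBP was in the window of 22 (71.1% of all protein-coding genes) and at the start of 19 (42.7%, or 66.9% of genes with H3K4me2 there). H3K4me2 was at the start of all 24 (63.8%), and a zone touched 9 windows (32.1%). MCM5, DBF4B and POLE had MTBP in the window but not at the start, and CCNE1, a cyclin E gene, had none in the window. At the 19 starts with MTBP (the lowest peak where a start had 2), the log2 ratio of deltaC to full-length had a median of −0.99, from −1.80 at POLE2, a subunit gene of the leading-strand polymerase, to 0.18 at MCM10, a helicase cofactor gene. All 19 were above the −4.20 of GINS1. CDC7, the kinase gene, had an H3K4me2 fold of 56.4 at its start, the highest of the 24, and RIF1, a timing regulator gene, the lowest at 11.5. Like MTBP and GINS4, the kinase subunit gene DBF4 was far from a zone, at 10357 kb. MCM2, MCM7, CDK2 and TIMELESS had MTBP at the start and the start in a zone, as GINS1 and GINS2 did.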

How the data were processed

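Per the labels, FLAG, IgG and H3K4me2 CUT&RUN and EdU-seq were done in DLD-1 lines, and groups were taken from the sample titles. Per the submitters' processing notes, the authors used Trim Galore, Bowtie2, MACS2 and HOMER on hg38. The sources used here do not give versions, settings, pooling of replicates or the EdU-seq libraries behind the zones. The authors' deposited lists hold a peak score and a signal per line for MTBP, an average score per zone, and a score, a fold enrichment and a −log10 q-value for H3K4me2. These are the authors' own values, used only to describe or rank peaks within a list.

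Here, lists were joined to RefSeq genes (GRCh38.p14) by an overlap of at least 1 bp, with Python 3.11.15 and pandas 2.3.3. H3K4me2 starts were shifted to count from 1. Chromosome Y and unplaced sequences were not used here. The log2 ratio used a pseudocount of 1. The planned count model was not run, since no list gives values per library. Untagged, IgG and G1-arrested libraries were not analysed here. The overlap counts were tested on made-up intervals. All 10 genes were named, with pathway genes, marker genes and neighbours by their place in the lists. An item counted among the 24 pathway genes is not reported here. The members and lists were chosen with earlier results of these data known.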

Additional observations from a re-analysis of the deposited data

How the results depend on the processing

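Of 62 alternative values of the counts and medians, 48 stayed within 1.5 times the count or 0.1 of the median log2 ratio. Counts already at or near all 10 genes could not rise by that much. A count of genes with a zone that went from 3 to 2 was also scored as within it. The tally of 48 is therefore partly fixed by the rule. The median log2 ratio stayed negative under every setting, whereas a count has no direction that could reverse. Peak by peak, deltaC was the lower at 14 of the 14 as deposited. It was the lower at 8 with each line divided by its median and at 7 with each divided by its sum. When peaks scoring below the list's median were dropped, 5 of the 10 genes kept MTBP in the window (MTBP, TOPBP1, CDC45, GINS2 and RECQL4, against 52.9% of protein-coding genes), and with zones counted by their centre 1 gene had a zone (17.4%). The median log2 ratio was −0.039 with each line divided by its median, −0.0068 with each divided by its sum, −0.60 over the 6 peaks of at least the median summed signal, and −0.80 over the 30 peaks within 50 kb. The peaks with a log2 ratio below −1 numbered 3 with either division (8.47% and 8.01% of the list), 1 of those 6 peaks (39.3% of the list's peaks so chosen), 3 of 9 with no margin around the genes and 9 of 30 within 50 kb (44.9% of the list). Below −2, a bound chosen after the data were seen, were 3 as deposited and 1 with either division (2.31% and 2.22% of the list). Both divisions took the ABHD12 and GSE1 peaks above −1, and the GINS1 start and both TOPBP1 gene-body peaks stayed below it. Keeping only peaks named for WT, chosen after the data were seen, gave 5 of 13. No paired analysis was possible because the lists give no values per library, and for the same reason no replicate could be left out. Depth is unknown, so it cannot be said what the missing peaks at GINS3, RECQL4 and DONSON owe to it.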
